A study of Mus musculus with 2 samples.

Results

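Cxcl12-high connective cells are the collagen-producing cells of the rib repair callus in which the chemokine gene Cxcl12 took a larger share of the captured transcripts than in most other connective cells. They were chosen from counts of unique molecular identifiers (UMIs), each of which stands for 1 captured transcript. A cell counted as connective where it had at least 1000 UMIs, under 10% of them from the 13 mitochondrial genes, at least 1% from Col1a1, Col1a2 and Col3a1 together, and 0 UMIs of Ptprc (leukocytes), Pecam1 (endothelium), Myog (differentiating muscle) and Rgs5 (mural cells of vessels). A connective cell was Cxcl12-high where its Cxcl12 level, ln(1 + 10000 × Cxcl12 UMIs / total UMIs), was above 2. There were 485 such cells among 9327 connective cells and 21259 barcodes in all, 394 in the control and 91 in Smo cKO.

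The study asked how Hedgehog signaling to Sox9+ lineage cells shapes the early callus of a large rib resection. Smo cKO mice had the genotype Sox9:CreER;R26:tdTomato;Smo flox/flox and control mice had 1 intact Smo allele (Sox9:CreER;R26:tdTomato;Smo flox/+), where Smo encodes Smoothened, the transducer of Hedgehog signaling. Both groups carried the Cre driver and the tdTomato reporter, and the scheme given for the experiment was 3 daily tamoxifen injections starting 7 days before surgery, in a study that used mice of 8 to 12 weeks of both sexes. The callus was taken 4 days after injury, dissociated and freed of dead cells, and 3 animals were pooled per genotype into 1 library. Cre activity is limited to cells that expressed Sox9 at the time of tamoxifen and their descendants, and Smo is not deleted from the other cells of the callus. With 1 library per genotype there was no replicate and no test, and library and genotype cannot be told apart. All intervals given are exact 95% intervals and cover counting error in these libraries only.

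CXCL12 is a secreted chemokine that signals through the receptor CXCR4 and is bound and removed by the scavenging receptor ACKR3. In bone marrow it is made in large amounts by perivascular stromal cells, often called CXCL12-abundant reticular cells, and it holds blood stem cells in their niche. Stromal fibroblasts of many tissues also make it, and fibroblasts exposed to inflammatory cytokines can secrete acute-phase and complement proteins of the kind best known from the liver.

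The values of Cxcl12 chose the cells and are given as a description. Cxcl12 (ENSMUSG00000061353, GRCm38 chromosome 6, 117168535 to 117181367, plus strand) had 5285 UMIs in the 394 control cells, with a lowest, median and highest count per cell of 1, 10 and 92. In the 91 Smo cKO cells it had 981 UMIs, with 1, 9 and 45 per cell. The median Cxcl12 level was 2.51 in control and 2.29 in Smo cKO cells, and 91 control cells but 6 Smo cKO cells lay above a level of 3. The Cxcl12-high cells were 7.27% (interval 6.59 to 7.99) of control connective cells and 2.33% (interval 1.88 to 2.85) of Smo cKO connective cells, and they held 43.4% and 15.7% of the Cxcl12 UMIs of all connective cells. At the edge of the rule, 119 control and 42 Smo cKO cells had a level of 2 to 2.25, and 172 and 71 connective cells had a level of 1.75 to 2. The control cell just inside had 19 Cxcl12 UMIs of 29709 and the one just outside had 1 of 1573, while in Smo cKO these were 7 of 10939 and 9 of 14112. A single Cxcl12 UMI was enough in 3 control and 7 Smo cKO cells of few UMIs.

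**Figure D1:**
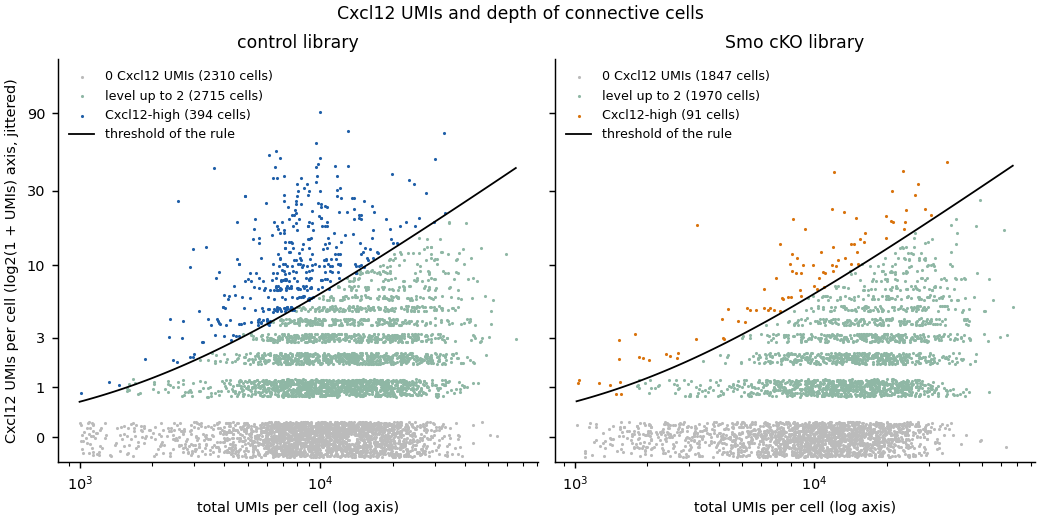
Cxcl12 UMIs (vertical axis, log2 of 1 + UMIs, jittered) against total UMIs (horizontal axis, log scale) for each connective cell of the control and the Smo cKO library. Cells with 0 Cxcl12 UMIs are gray, cells of a level up to 2 green and Cxcl12-high cells blue or orange, and the line marks a level of 2. The 394 control and 91 Smo cKO cells above the line span cells of 1014 to 35561 UMIs.

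The cells were compared with connective cells of the same library that had 0 Cxcl12 UMIs. Each Cxcl12-high cell was paired with up to 5 of these whose total UMIs differed by at most 10%, which gave 1625 zero cells in the control and 445 in Smo cKO. Median UMIs per cell were 7717.5 in Cxcl12-high and 8215 in matched zero cells of the control, and 8447 and 8738 in Smo cKO. The number of genes detected per cell was a little lower in the Cxcl12-high cells, with medians of 2105.5 and 2270 in the control and 2312 and 2420 in Smo cKO. The 3 collagens of the rule took a median of 3.97% of UMIs in Cxcl12-high and 3.50% in zero cells of the control, and 2.92% and 3.06% in Smo cKO. Summed over cells, the Cxcl12-high class held 934301 UMIs in Smo cKO against 3455310 in the control, so that its values are less precise there.

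Before the results it must be said that 613 barcodes occurred in both libraries. In 338 of them the control total was under 5% of the Smo cKO total (median 1.68%), and in 148 the reverse held (median 1.48%). Among Cxcl12-high cells, 6 control and 2 Smo cKO cells had such a barcode, as did 26 and 10 of the matched zero cells. The counts of called genes below are therefore also given without these barcodes, a setting chosen after seeing the data.

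The label was first checked against connective genes that the rule did not use. Of 12 such markers, among them Pdgfra, Dcn, Lum, Prrx1 and Sparc, 11 reached a level of 50 CPM in the control and 12 in Smo cKO, and none differed by 2-fold between Cxcl12-high and zero cells in either library. Here CPM is the UMI count of a gene summed over the cells of a class, per 1000000 summed UMIs of those cells, with Cxcl12 left out of the total. A pair of CPM values gives Cxcl12-high cells first and zero cells second, and the control is given before Smo cKO. Sparc, a collagen-binding matrix protein and the most abundant of these markers, was at 10995 CPM in Cxcl12-high and 9233 CPM in zero cells of the control, and at 10338 and 10197 CPM in Smo cKO. Prrx1, a transcription factor of limb and rib mesenchyme, was at 249 and 246 CPM in the control and 280 and 260 CPM in Smo cKO. The cells thus carried connective markers at the level of other connective cells of the same callus.

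Genome-wide, the Cxcl12-high cells of the control were set apart by 60 genes past 2-fold upward and 89 past 2-fold downward against zero cells, among 2500 genes at 50 CPM or more in either class. These are 2.40% and 3.56% of the genes compared. In the Smo cKO library, 49 genes were higher and 53 lower among 2636, or 1.86% and 2.01%. Without the shared barcodes the counts were 61 and 91 in the control and 47 and 47 in Smo cKO. The median log2 ratio of the genes compared was −0.21 in the control and −0.04 in Smo cKO, and ratios centred on it gave 80 higher and 52 lower genes in the control and 51 and 45 in Smo cKO, so that a control ratio between −0.21 and 0 is above that of the median gene. The 104 ribosomal protein genes took 348901 CPM in Cxcl12-high and 301518 CPM in zero cells of the control, a log2 ratio of 0.21, and 291835 and 268977 CPM in Smo cKO, a log2 ratio of 0.12.

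The same direction was found in the other library for nearly all of these genes. All 60 genes called higher in the control were above 0 in Smo cKO, and 86 of the 89 called lower were below 0. In the other direction, 48 of the 49 higher and 51 of the 53 lower genes of the Smo cKO library had the same sign in the control. Past 2-fold in both libraries were 29 higher genes, 48.3% of the control's and 59.2% of the Smo cKO's, and 30 lower genes, 33.7% and 56.6%. Across the 2353 genes at 50 CPM or more in both comparisons, the log2 ratios of the libraries had a Pearson r of 0.72 and a Spearman rho of 0.50, a description over genes that share the cells of 2 libraries and are not independent replicates.

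**Figure D2:**
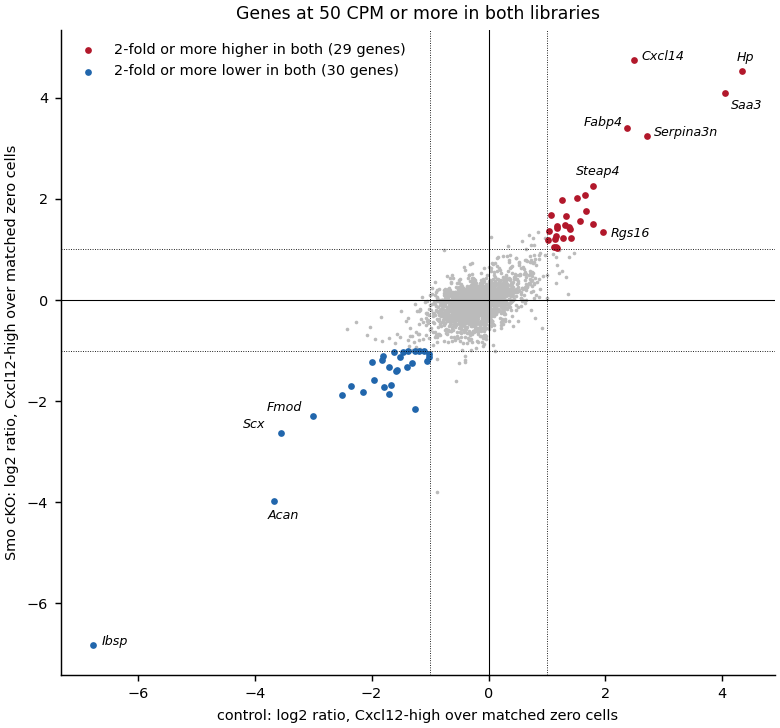
Log2 ratio of CPM in Cxcl12-high over matched zero cells in the control (horizontal axis) and the Smo cKO library (vertical axis) for 2353 genes, each point 1 gene, with the genes past 2-fold in both libraries in color and leading genes named. The acute-phase genes Hp and Saa3 lie far up on the right and the chondrogenic and tendon genes Acan, Scx and Fmod far down on the left.

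Hp and Saa3, ranked 1 and 2 among higher genes in the control and 2 and 3 in Smo cKO, encode secreted proteins of the acute-phase response, the set of plasma proteins that liver and stromal cells release in inflammation. Hp (ENSMUSG00000031722, chromosome 8, 109575128 to 109579172, minus strand) encodes haptoglobin, which binds free hemoglobin. It was at 823 CPM in Cxcl12-high and 40.6 CPM in zero cells of the control, and at 293 and 12.7 CPM in Smo cKO. The log2 ratios were 4.34 (interval 4.21 to 4.47) in control and 4.53 in Smo cKO (interval 4.12 to 4.96). Hp had a UMI in 71.8% of Cxcl12-high and 17.4% of zero cells of the control, and in 36.3% and 7.19% in Smo cKO. As a background, leukocytes (cells with at least 2 Ptprc UMIs and under 1% of collagen UMIs, of which some myeloid cells can make Hp and Saa3 themselves) had an Hp UMI in 7.95% of 327 control cells (median 3947 UMIs) and 9.57% of 460 Smo cKO cells (median 4103.5 UMIs). The share in zero cells of the Smo cKO library was below that of these leukocytes and is not read as expression. The Cxcl12-high cells were above the leukocyte share in both libraries. How much of that share the leukocytes make themselves was not tested.

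Saa3 (ENSMUSG00000040026, chromosome 7, 46711998 to 46715700, minus strand) encodes serum amyloid A3, the form made outside the liver. It was at 1565 CPM in Cxcl12-high and 94.3 CPM in zero cells of the control, and at 870 and 51.1 CPM in Smo cKO. The log2 ratios were 4.05 (interval 3.97 to 4.14) in control and 4.09 in Smo cKO (interval 3.88 to 4.30). In Ptprc cells Saa3 had a UMI in 8.26% of control and 6.52% of Smo cKO cells, against 57.6% and 28.6% of the Cxcl12-high cells. The Smo cKO zero cells were below the 67.6 CPM of Smo cKO Ptprc cells, some of which may make Saa3 themselves. Whether those zero cells express Saa3 was thus not settled. Serpina3n (chromosome 12, 104406729 to 104414329, plus strand), a secreted protease inhibitor, was at 195 CPM in Cxcl12-high and 29.8 CPM in zero cells of the control, and at 63.2 and 6.66 CPM in Smo cKO, log2 ratios of 2.72 and 3.25. It was found in 64.2% of control and 31.9% of Smo cKO Cxcl12-high cells, beside 2.14% and 0.217% of Ptprc cells.

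**Figure D3:**
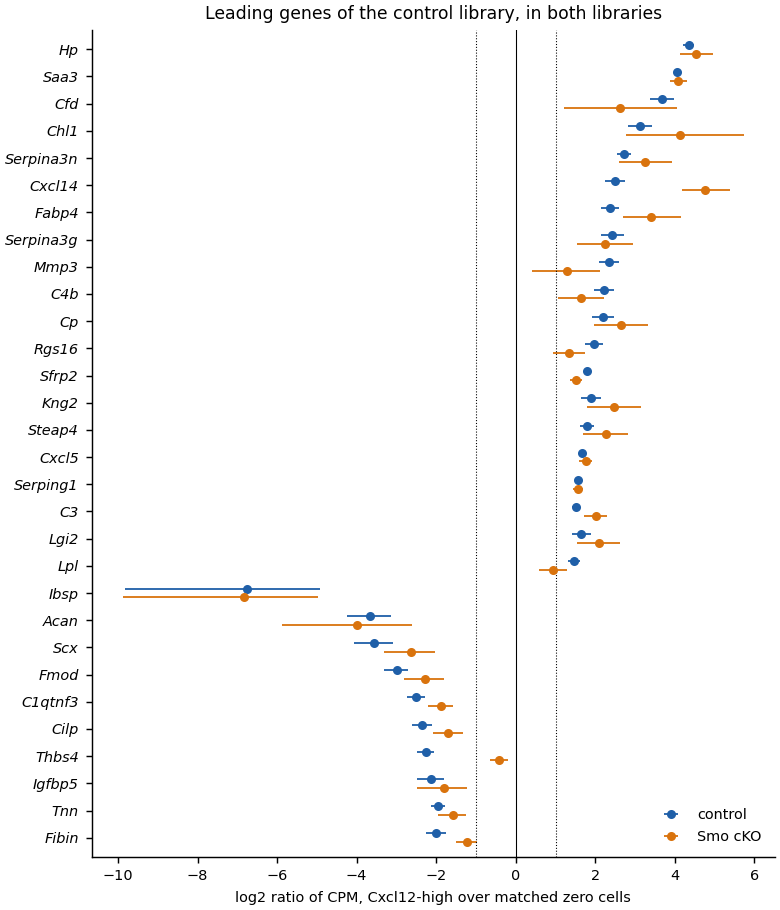
Log2 ratio of CPM in Cxcl12-high over matched zero cells (horizontal axis) for the 20 leading higher and 10 leading lower genes of the control (rows), with the control and Smo cKO in separate colors, bars for the exact 95% Poisson interval and dotted lines at 2-fold. Hp and Saa3 have ratios above 4 in both libraries, and the Smo cKO values of Thbs4 (−0.43) and Lpl (0.93) lie within the 2-fold lines.

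Hp and Saa3 were often found in the same cell. Of the control Cxcl12-high cells, 191 of 394 (48.5%, interval 43.4 to 53.5) had a UMI of both, beside 83 of 1625 zero cells (5.11%). In the Smo cKO library this was 20 of 91 (22.0%, interval 14 to 31.9) and 6 of 445 (1.35%). Neither gene was found in 75 control (19.0%) and 52 Smo cKO cells (57.1%). At least 3 UMIs of the acute-phase list below were found in 95.4% and 73.6% of all Cxcl12-high cells, beside 64.7% and 51.9% of zero cells. The UMIs were uneven, since the 10 cells with the most UMIs held 34.6% of the Hp and 28.4% of the Saa3 UMIs of the control class, and 74.7% and 83.7% in the Smo cKO class. Of all Hp and Saa3 UMIs of control connective cells, the Cxcl12-high cells held 32.0% and 39.8%.

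The acute-phase list of 13 genes was higher as a whole. Summed over the list, Cxcl12-high cells were at 4000 CPM and zero cells at 780 CPM in the control, a log2 ratio of 2.36, and at 2216 and 533 CPM in Smo cKO, a log2 ratio of 2.06. Of the 10 members at 50 CPM or more, 8 were at least 2-fold higher in the control and 7 in Smo cKO, and none was lower. The median log2 ratio of its 12 members with 10 or more UMIs (in any list, a member with 0 UMIs in a class enters at its bound from a floor of 3 counts) was 1.63 and 1.69, beside −0.14 over 12967 genes in the control and −0.07 over 11117 genes in Smo cKO. Orm1, an acute-phase gene of hepatocytes, had 0 UMIs in the Cxcl12-high cells of both libraries. Steap4, a metalloreductase induced by inflammation, was at 137 and 39.6 CPM in the control and 57.9 and 12 CPM in Smo cKO, log2 ratios of 1.79 and 2.27. Cp, which encodes the copper ferroxidase ceruloplasmin, was at 63.2 and 13.8 CPM in the control and 47.1 and 7.52 CPM in Smo cKO, log2 ratios of 2.20 and 2.65. Il6, the cytokine that drives the hepatic acute-phase response, was at 228 and 111 CPM in the control and 314 and 122 CPM in Smo cKO, log2 ratios of 1.04 and 1.36. Il1r1, the signaling receptor for interleukin-1, was at 221 and 99.2 CPM and at 149 and 62.3 CPM, log2 ratios of 1.15 and 1.26. Outside the list, the control had Kng2, a kininogen, at 70.1 and 18.9 CPM and the long pentraxin gene Ptx3 at 614 and 277 CPM.

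Because these genes were higher together, the bases before their start sites were read from RefSeq (GRCm38.p6) for the 250 bases before each start. Searched on both strands were TTGCNNAA for C/EBP, TGANTCA for AP-1, TTCNNNGAA for STAT, TATAAA for the TATA box, and the NF-kB motif. Of the 29 genes higher in both libraries, 23 were in the table, and 9 of them (39.1%) held the C/EBP letters, against 10.8% of all 27025 genes of the table (a gene counted where any of its windows held them) and 4 of 25 matched genes (16%) lower in both. These 9 were C3, Dram1, Il1r1, Il6, Plac8, Ptx3, Saa3, Sfrp2 and Steap4. Hp was not in the table. The genes of the table were not limited to those at 50 CPM or more, and the share among those was not counted. The NF-kB letters were in 6 of the 23 (26.1%), in 4 of the 25 (16%) and in 4.46% of all genes. AP-1 letters were in 2 of the 23, 1 of the 25 and 7.82% of all genes, STAT letters in 3, 0 and 8.13%, and TATA letters in 2, 7 and 14.3%. A match describes the letters of a window and is not a site shown to be bound. Among windows read but not shown, that of the higher gene Serpina3n held none of the 5 motifs. Of lower genes, Acan had an NF-kB match 95 bases before the start, Fmod a C/EBP match at 125 and Ibsp a TATA match at 28. The windows of Cxcl12, which chose the cells and held none of the 5 motifs, of Saa3, with 1 C/EBP match 99 bases before the start, and of Steap4, with 4 kinds of match, are shown 5′ to 3′ on the strand of the gene, with the matches in capitals. All distances count from the RefSeq start, which for Saa3, Steap4 and Acan is not the GENCODE start of the gene. Bases within the GENCODE gene are left off, which leaves 226 bases for Saa3 and 235 for Steap4. In both, the matches thus lie nearer the end of the shown sequence than the distance given. The windows lie at chr6:117168285-117168534 (plus strand), chr7:46715701-46715926 (minus strand) and chr5:7960222-7960456 (plus strand).
Cxcl12: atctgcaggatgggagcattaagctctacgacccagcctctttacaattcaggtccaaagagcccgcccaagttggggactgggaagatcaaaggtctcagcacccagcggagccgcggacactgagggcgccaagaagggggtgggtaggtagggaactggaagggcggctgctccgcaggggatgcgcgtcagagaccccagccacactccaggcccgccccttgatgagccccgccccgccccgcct
Saa3: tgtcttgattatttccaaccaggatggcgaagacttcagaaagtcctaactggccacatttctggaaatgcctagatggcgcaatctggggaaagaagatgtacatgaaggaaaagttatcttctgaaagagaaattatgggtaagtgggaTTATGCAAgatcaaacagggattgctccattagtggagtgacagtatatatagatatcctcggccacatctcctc
Steap4: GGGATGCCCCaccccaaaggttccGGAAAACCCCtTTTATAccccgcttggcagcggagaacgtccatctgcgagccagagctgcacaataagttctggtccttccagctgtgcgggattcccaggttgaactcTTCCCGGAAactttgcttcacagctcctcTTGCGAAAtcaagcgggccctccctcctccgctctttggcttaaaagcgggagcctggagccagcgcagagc
In Saa3 the capitals are the C/EBP letters read on the other strand. In Steap4 they begin with NF-kB matches at 250 and 226 bases before the RefSeq start and the TATA letters at 215, all read on the other strand. The STAT letters at 116 and the C/EBP letters at 87 follow, with no overlap among the matches.

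Complement genes of the classical and alternative pathways were mostly above 0, 9 of 10 in each library. Of the 10 genes listed, 7 reached 50 CPM in the control, 5 of them at least 2-fold higher and 1 lower, while 3 reached it in Smo cKO, 1 higher and 1 lower. The median log2 ratio of the 10 was 1.33 and 1.20. Serping1, the inhibitor of the C1 protease complex, was at 1217 and 409 CPM in the control and 856 and 290 CPM in Smo cKO, log2 ratios of 1.57 (interval 1.52 to 1.63) in control and 1.56 in Smo cKO (interval 1.44 to 1.69). It was found in 98.0% of control Cxcl12-high cells, so that its ratio was one of transcripts per cell and not only of cells with any. C4b, a classical pathway component, was at 83.2 and 17.9 CPM in the control and 46.1 and 14.8 CPM in Smo cKO, log2 ratios of 2.22 and 1.64. C3, the central component of the cascade, was counted in the acute-phase list and was at 517 and 181 CPM in the control and 195 and 48.3 CPM in Smo cKO, log2 ratios of 1.51 and 2.01. The lower gene of the list, C1qtnf3, is a C1q-related secreted protein of cartilage and tendon precursors and no part of the cascade, at 51.9 and 295 CPM and at 95.4 and 353 CPM.

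Cfd, which encodes adipsin, a factor of the alternative pathway made by fat cells, shows how 1 cell can carry a ratio. It was at 108 and 8.46 CPM in the control, a log2 ratio of 3.67, but was found in 6.60% of Cxcl12-high cells, and 39.0% of its UMIs came from 1 cell. Without that cell the log2 ratio was 2.96. That cell, of 13769 UMIs, held 145 UMIs of Cfd, 10 of Adipoq, 94 of Lpl and 63 of Fabp4, beside 23 of Cxcl12, and thus a set of fat cell transcripts. The same cell held 234 UMIs of Hp, the most in a control Cxcl12-high cell. Fabp4, a fatty acid binding protein of fat cells and endothelium, had a UMI in 32.5% of control and 27.5% of Smo cKO Cxcl12-high cells, beside 7.34% and 9.35% of Ptprc cells. It was at 96.5 and 18.7 CPM in the control and 56.8 and 5.37 CPM in Smo cKO, log2 ratios of 2.37 and 3.40, or 2.07 and 3.04 without the cell that held most. In Smo cKO the ratio was 2.23 with zero cells also matched on collagen share and 2.37 against all zero cells. It was 2.45 as the mean of the cells' own CPM, 1.55 thinned to 1000 UMIs and 3.41 with 1 zero cell per Cxcl12-high cell. Zero cells were below the 20.6 and 37.5 CPM of Ptprc cells, so their Fabp4 is not read as expression. How much Fabp4 the Ptprc cells make themselves was not tested. Of the 9 genes of the adipogenic list, which holds Fabp4 but not Cfd, Adipoq or Lpl, 3 reached 50 CPM in each library, and Fabp4 was the member past 2-fold. In the control 8 members were above 0 and 1 below, and in Smo cKO 5 above and 2 below, with medians of 0.75 and 0.55. The list summed to 450 and 264 CPM in the control and to 384 and 251 CPM in Smo cKO.

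The marrow stromal niche list asked how far the cells resembled CXCL12-abundant reticular cells. Of its 16 genes, 7 reached 50 CPM in each library, of which 4 were at least 2-fold higher in the control and 3 in Smo cKO, and none lower. The median log2 ratio was 0.63 over 16 members and 0.32 over 14. Summed, the list was at 1483 and 836 CPM in the control and 1315 and 839 CPM in Smo cKO, log2 ratios of 0.83 and 0.65. Vcam1, an adhesion molecule of stroma and activated endothelium, was at 231 and 102 CPM in the control and 221 and 80.3 CPM in Smo cKO, log2 ratios of 1.18 and 1.46. Gas6, a ligand of the AXL family of receptors, was at 280 and 129 CPM and at 249 and 120 CPM, log2 ratios of 1.12 and 1.05. Lpl, which encodes lipoprotein lipase, was at 173 and 62.9 CPM in the control, a log2 ratio of 1.46 that was 1.22 without the cell of most UMIs, and at 103 and 53.9 CPM in Smo cKO. Cxcl14, a chemokine of stromal fibroblasts, was at 86.4 and 15.3 CPM in the control and 163 and 6.01 CPM in Smo cKO, where 74.3% of its UMIs came from 1 cell and the log2 ratio of 4.76 was 2.84 without it. It had a UMI in 17.5% of control and 16.5% of Smo cKO Cxcl12-high cells, beside 8.87% and 12.4% of Ptprc cells. Those were at 29.8 and 37.5 CPM, above the zero cells, so Cxcl14 in zero cells is not read as expression. In Smo cKO, 113 of the 152 UMIs were in 1 cell, and the share of Cxcl12-high cells with a UMI was close to the interval of the Ptprc share (9.52 to 15.8%).

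Of the genes that mark marrow reticular cells most closely, Lepr and Adipoq were scarce. Lepr, the leptin receptor, had 7 UMIs in 5 of 394 control cells and 2 UMIs in 2 of 91 Smo cKO cells, or 2.03 and 2.14 CPM, beside 3.63 and 3.87 CPM in zero cells. Lepr was found in 178 of 5419 and 155 of 3908 connective cells. Adipoq, which encodes adiponectin, had 17 UMIs in 5 control cells, 10 of them in the cell described above, and 0 in the Smo cKO cells. No barcode of either library had a UMI of both. Kitl, the stem cell factor, was at 12.2 and 7.45 CPM in the control and 8.57 and 4.51 CPM in Smo cKO, and Foxc1, a transcription factor of reticular cells, was at 24.1 and 27.9 CPM and at 27.9 and 26.8 CPM. Ebf1, in the control the most abundant gene of the list, was at 311 and 220 CPM in the control and 210 and 230 CPM in Smo cKO. The name of a marrow stromal cell is therefore not given to these cells, and they are called by their Cxcl12 level.

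**Figure D4:**
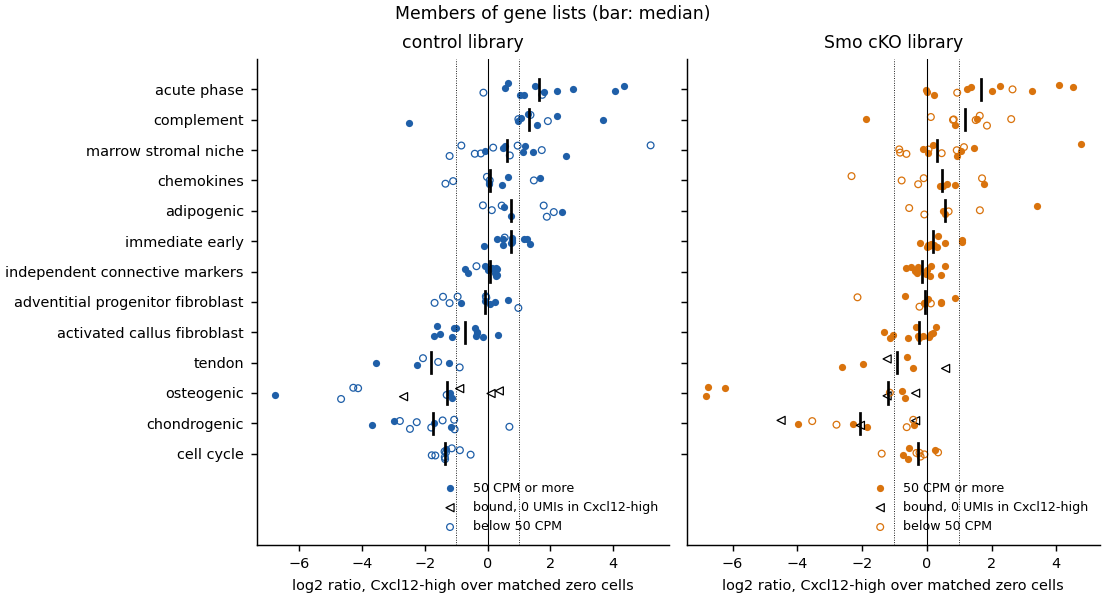
Log2 ratio of CPM in Cxcl12-high over matched zero cells (horizontal axis) for the members of each list (rows), with the control and the Smo cKO library in separate colors and a black bar at the median. Filled points reached 50 CPM, open points did not, triangles are bounds for members with 0 UMIs in Cxcl12-high cells, and members with under 10 UMIs are not drawn. The medians of the acute-phase and complement lists lie to the right of 0 and those of the chondrogenic, osteogenic, tendon and cell cycle lists to the left.

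Chemokines other than Cxcl12 and their receptors were described next. Cxcl5, a neutrophil-attracting chemokine, was at 646 and 204 CPM in the control and 616 and 183 CPM in Smo cKO, log2 ratios of 1.66 and 1.75, and was the 1 member of 12 past 2-fold in each library, where 5 reached 50 CPM. Cxcl1, of the same family, was at 2281 and 1650 CPM and at 2627 and 1981 CPM, log2 ratios of 0.47 and 0.41. Ccl7, a monocyte chemokine, had log2 ratios of 0.64 and 0.51, and Ccl2 of 0.03 and 0.62. Cxcr4 had 8 and 2 UMIs in the Cxcl12-high cells of the libraries, or 2.32 and 2.14 CPM, beside 4.43 and 2.58 CPM in zero cells. Ackr3 was at 32.5 and 32.7 CPM in the control and 11.8 and 22.8 CPM in Smo cKO. Csf3, the neutrophil growth factor G-CSF, was at 73.9 and 3.01 CPM in Smo cKO, with a log2 ratio at 4.62 (interval 3.78 to 5.56). Its 69 UMIs came from 12 of 91 Cxcl12-high cells (13.2%), and 4 of them held at least 50% of the UMIs. In the control it was at 17.7 and 4.37 CPM, a log2 ratio of 2.02. Among cells with Ptprc, 0.612% in control and 2.83% in Smo cKO had a Csf3 UMI, at 1.09 and 8.49 CPM, which in Smo cKO was above the zero cells.

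Among secreted modulators of growth factor signaling, some genes were higher and others lower. Of 10 Wnt modulators, 4 reached 50 CPM in each library, 1 of them at least 2-fold higher and none lower. In the control 6 of the 10 were below 0 and in Smo cKO 7, with medians of −0.30 and −0.47. Among 8 genes of the insulin-like growth factor system, 5 reached 50 CPM in the control, 1 higher and 2 lower past 2-fold. In Smo cKO 6 did, 1 higher and 3 lower, and the medians were −0.99 and 0.07. Sfrp2, a secreted Wnt modulator, was at 680 and 197 CPM in the control and 608 and 214 CPM in Smo cKO, log2 ratios of 1.79 (interval 1.71 to 1.87) in control and 1.51 in Smo cKO (interval 1.35 to 1.66), and was found in 85.8% of control Cxcl12-high cells beside 5.20% of Ptprc cells. Igfbp4, an inhibitory binding protein of insulin-like growth factors, was at 1844 and 825 CPM and at 1451 and 704 CPM, log2 ratios of 1.16 and 1.04. Igfbp5 and Igfbp6, of the same family, were lower, at −2.14 and −1.81 for Igfbp5 and −1.56 and −1.39 for Igfbp6. A single cell held 32.9% of the control and another 37.5% of the Smo cKO Igfbp5 UMIs, and without it the ratios were −2.71 and −2.47. Igf1 was at 657 and 359 CPM in the control, a log2 ratio of 0.87, and at 420 and 401 CPM in Smo cKO, a log2 ratio of 0.07. Of 14 genes of BMP and TGF-beta signaling, Tgfb1, Tgfb2 and the TGF-beta target Tgfbi were at least 2-fold lower in both libraries, with log2 ratios of −1.19, −1.11 and −1.37 in the control and −1.01, −1.01 and −1.01 in Smo cKO, while Fst, which encodes the activin-binding follistatin, was at 0.69 and 1.29.

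Hedgehog pathway genes were sparse in the cells. Smo, the gene deleted by Cre, was at 21.2 CPM in Cxcl12-high and 18.1 CPM in zero cells of the control, and at 9.64 CPM, from 9 UMIs, and 15 CPM in Smo cKO. The UMIs do not separate the deleted from the intact allele. Ptch1, a receptor and target of the pathway, was at 7.83 and 10.7 CPM and at 8.57 and 11.8 CPM, and Gli1, the target most used as a readout, had 2 UMIs in control and 1 in Smo cKO Cxcl12-high cells. Gas1, a coreceptor, was the 1 member of the list of 11 to reach 50 CPM, at 261 and 115 CPM in the control, a log2 ratio of 1.18, and at 138 and 85.9 CPM in Smo cKO, a log2 ratio of 0.69. The tdTomato reporter, which marks cells in which Cre was active, was nearly absent from the counts, with 3 UMIs in control and 1 in Smo cKO Cxcl12-high cells and 16 and 8 in the zero cells, so that lineage could not be read from it at this depth.

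Among the genes with the lowest ratios in Cxcl12-high cells were those of cartilage, bone and tendon differentiation. Acan (chromosome 7, 79053483 to 79115099, plus strand), which encodes the cartilage proteoglycan aggrecan, was at 8.41 CPM in Cxcl12-high and 107 CPM in zero cells of the control, and at 4.29 CPM, from 4 UMIs, and 67.9 CPM in Smo cKO. The log2 ratios were −3.67 (interval −4.26 to −3.14) in control and −3.99 in Smo cKO (interval −5.87 to −2.62). With cells thinned to 1000 UMIs the Smo cKO value was only a bound, −0.45 or lower from a floor of 3 counts. Acan had a UMI in 5.84% of control Cxcl12-high and 21.0% of zero cells, beside 4.59% of Ptprc cells, so that the Cxcl12-high cells were close to the background. Fmod (chromosome 1, 134037254 to 134048277, plus strand), the collagen-binding proteoglycan fibromodulin, was at 28.7 and 229 CPM in the control and 38.6 and 189 CPM in Smo cKO, log2 ratios of −3.0 and −2.29. Col11a1, a fibrillar collagen of cartilage, was at 48.1 and 156 CPM and at 53.6 and 195 CPM, log2 ratios of −1.70 and −1.86. Of 12 chondrogenic genes, 4 reached 50 CPM in the control and 5 in Smo cKO, and 4 were at least 2-fold lower in each, with a list median of −1.75 and −2.05. Sox9, the transcription factor of the lineage, was at 21.4 and 44.9 CPM in the control and 25.7 and 39.5 CPM in Smo cKO, log2 ratios of −1.07 and −0.62.

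Col2a1, the main cartilage collagen, had 0 UMIs in the Smo cKO Cxcl12-high cells and 72.8 CPM in the zero cells, a log2 ratio of −4.50 or lower with a floor of 3 counts over the class, but only 1.35% of those zero cells had a UMI of it. Of 6 tendon genes, 3 of the 3 at 50 CPM were at least 2-fold lower in the control and 2 of 4 in Smo cKO. Scx (chromosome 15, 76457452 to 76459458, plus strand), the transcription factor of tendon progenitors, was at 10.4 and 123 CPM in the control and 23.6 and 146 CPM in Smo cKO, log2 ratios of −3.56 (interval −4.07 to −3.08) in control and −2.63 in Smo cKO (interval −3.31 to −2.02). It was found in 6.85% of Cxcl12-high and 30.6% of zero cells of the control, and in 9.89% and 39.3% in Smo cKO. Cells with Ptprc had it at 9.23 and 10.3 CPM, with a UMI in 3.98% and 4.35% of them, so the control Cxcl12-high cells were about at background and the size of their ratio is limited by it. Thbs4, a thrombospondin of tendon matrix, was at 61.2 and 294 CPM in the control, a log2 ratio of −2.27, and at 194 and 261 CPM in Smo cKO, a log2 ratio of −0.43. Aspn, a proteoglycan of the same family as Fmod, was at 469 and 1104 CPM and at 1005 and 1549 CPM, log2 ratios of −1.24 and −0.62. Cilp, a matrix protein of cartilage and tendon, was at 42.3 and 215 CPM and at 71.8 and 232 CPM, log2 ratios of −2.35 and −1.69.

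Among osteogenic genes, Ibsp, which encodes bone sialoprotein, had 2 UMIs in the Cxcl12-high cells of each library, 0.580 and 2.14 CPM, beside 63.2 and 245 CPM in zero cells. The log2 ratios were −6.77 (interval −9.82 to −4.91) in control and −6.84 in Smo cKO (interval −9.88 to −4.98), but the zero cells' UMIs came from 4.00% and 4.27% of them. Bglap and Bglap2, near-identical osteocalcin genes whose reads can be shared, had 2 and 1 UMIs in the Smo cKO Cxcl12-high cells, beside 162 and 116 CPM in its zero cells, of which 2.25% and 1.12% had a UMI. Few zero cells thus carried these ratios. With zero cells also matched on collagen share, Bglap was at −1.28 and Bglap2 at −1.86 in Smo cKO, beside −6.24 and −6.76. Against cells of low Cxcl12, Bglap was at 3.29, from 2 UMIs and 1 UMI, so its direction was not settled at this depth. Runx2, an early transcription factor of that lineage, was spread over 32.8% of control zero cells, and was at 27.5 and 59.9 CPM in the control and 35.4 and 60.6 CPM in Smo cKO, log2 ratios of −1.12 and −0.78. Alpl had 0 UMIs in the Cxcl12-high cells of both libraries, with 5.57 and 4.08 CPM in zero cells. Of 11 osteogenic genes, 3 reached 50 CPM in the control and 5 in Smo cKO, with 3 at least 2-fold lower in each.

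Some markers of the activated matrix-producing fibroblast of the callus were lower as well. Of 12 genes, all of which reached 50 CPM, 6 were at least 2-fold lower in the control and 3 in Smo cKO, and 4 were above 0 in Smo cKO, with medians of −0.71 and −0.25. Tnc, which encodes the injury matrix protein tenascin C, was at 226 and 647 CPM in the control and 386 and 842 CPM in Smo cKO, log2 ratios of −1.52 and −1.13. Inhba, the subunit of activin A, was at 171 and 522 CPM and at 311 and 636 CPM, log2 ratios of −1.61 and −1.03. Lrrc15, a surface protein of TGF-beta activated fibroblasts, was at 38.6 and 125 CPM and at 67.5 and 169 CPM, log2 ratios of −1.70 and −1.33. Acta2, the smooth muscle actin of myofibroblasts, was at 246 and 539 CPM in the control, a log2 ratio of −1.13, but at 889 and 855 CPM in Smo cKO. Tnn, which encodes tenascin W of periosteum and tendon, was at 80.6 and 313 CPM and at 80.4 and 242 CPM, log2 ratios of −1.96 and −1.59.

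Of 10 collagens not used by the rule, 7 were below and 3 above 0 in each library, with medians of −0.43 and −0.45. Of the 9 at 50 CPM, at least 2-fold lower were 2 in the control and 0 in Smo cKO, and at least 2-fold higher 0 and 2. Col12a1, a fibril-associated collagen, was at 253 and 574 CPM in the control and 330 and 649 CPM in Smo cKO, log2 ratios of −1.18 and −0.98, and Col8a1 was at 112 and 366 CPM and at 321 and 544 CPM, log2 ratios of −1.70 and −0.76. The basement membrane collagens Col4a1 and Col4a2 had log2 ratios of 0.85 and 0.97 in the control and 1.34 and 1.22 in Smo cKO. Eln, the elastin gene, was at 219 and 694 CPM in the control and 222 and 712 CPM in Smo cKO, a log2 ratio of −1.67 and −1.68, although 54.1% of Cxcl12-high and 54.6% of zero cells of the control had a UMI of it. Of 8 other elastic fibre genes, 5 reached 50 CPM in the control and 6 in Smo cKO, of which 1 was past 2-fold, higher in both libraries. Of the 8, 5 were above 0 in the control and 4 in Smo cKO, with medians of 0.24 and 0.11. The gene past 2-fold was Fbln1, which encodes fibulin 1, at 179 and 69.0 CPM and at 136 and 49.8 CPM, log2 ratios of 1.38 and 1.45. Col14a1, a collagen of dermal and adventitial fibroblasts, had log2 ratios of 0.59 and 0.66, and of the 12 adventitial progenitor markers 5 reached 50 CPM in the control and 7 in Smo cKO, of which none differed by 2-fold.

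Proliferation genes were scarce in the control Cxcl12-high cells. The 10 cell cycle genes summed to 127 CPM in Cxcl12-high and 300 CPM in zero cells of the control, a log2 ratio of −1.24, and to 329 and 426 CPM in Smo cKO, a log2 ratio of −0.37. At least 3 UMIs of the list were found in 7.36% of Cxcl12-high and 20.1% of zero cells of the control, and in 28.6% and 27.0% in Smo cKO. Immediate early genes, which are induced within minutes and also during dissociation of tissue, were listed too. Of the 12 listed, which include heat shock genes, 11 reached 50 CPM in the control, where Fos, Jun and Zfp36 were at least 2-fold higher. In Smo cKO 12 did, and the 2-fold higher ones were the heat shock genes Hspa1a and Hspa1b. None was 2-fold lower in either library, and the list medians were 0.75 and 0.19. In the control Fos was at 646 and 252 CPM and Jun at 684 and 287 CPM, log2 ratios of 1.36 and 1.25, beside 0.13 and 0.57 in Smo cKO. The part of the dissociation in these values was not tested.

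Genes of other cell types were counted in the same way. The 10 macrophage genes summed to 165 CPM in Cxcl12-high and 261 CPM in zero cells of the control and to 161 and 310 CPM in Smo cKO, with Lyz2 the most abundant at 53.0 and 98.2 CPM and at 67.5 and 110 CPM. The 5 neutrophil genes summed to 43.8 and 89.4 CPM and to 55.7 and 240 CPM, with S100a8 the most abundant and Csf3r and Mmp8 at 0 in the Smo cKO Cxcl12-high cells. Lymphocyte genes were at 0 in Cxcl12-high cells of both libraries for 5 of 5. Endothelial genes summed to 21.7 and 23.2 CPM and to 32.1 and 28.4 CPM, with Cdh5 and Sox17 at 0 in Cxcl12-high cells of both libraries, mural genes to 94.5 and 90.6 CPM and to 151 and 132 CPM, and muscle genes to 34.2 and 41.0 CPM and to 51.4 and 62.9 CPM. Epithelial and mesothelial genes summed to under 5 CPM and glial genes to 12.2 and 9.67 CPM and to 10.7 and 7.52 CPM, with Sox10 at 0 in Cxcl12-high cells. Hemoglobin and other erythroid genes summed to 579 and 2404 CPM in the control and 669 and 1028 CPM in Smo cKO, with Hbb-bs the most abundant at 280 and 1150 CPM and at 341 and 493 CPM. Of the 4 erythroid genes at 50 CPM, 4 were at least 2-fold lower in the control and 0 in Smo cKO, but the median per cell was 285 CPM in Cxcl12-high and 271 CPM in zero cells of the control, so that the sums were not those of the typical cell. No doublet caller was run, and the part of these transcripts in the other ratios was not tested beyond the cells with under 3 UMIs of the non-erythroid lists, in which 212 control Cxcl12-high cells gave 62 higher and 108 lower genes and Hp a log2 ratio of 4.28.

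The leading genes were also read along the range of Cxcl12, as a description, since they were chosen for differing between its ends. Connective cells with at least 5000 UMIs were divided into cells with 0 Cxcl12 UMIs, a level of up to 1, of 1 to 2, of 2 to 3 and above 3, with 1991, 1527, 1080, 259 and 78 cells in the control. Hp was at 35.8, 76.2, 219, 705 and 1286 CPM in these bands, and Sfrp2 at 159, 196, 334, 642 and 864 CPM. Acan was at 114, 64.7, 36.0, 10.6 and 1.45 CPM, and Scx at 138, 102, 57.7, 12.9 and 2.90 CPM. Of the 20 leading higher genes of the control, 10 were higher in each successive band, and of the 10 leading lower genes 8 were lower in each, the exceptions being Ibsp and Thbs4. In the Smo cKO library, with 1514, 1259, 642 and 63 cells in the first 4 bands, Hp was at 12.3, 15.4, 38.1 and 287 CPM and Acan at 64.6, 41.4, 21.6 and 4.78 CPM. The band above 3 held 4 Smo cKO cells, and 3 of the 10 leading higher and 2 of the 5 leading lower genes kept 1 direction over all bands. Median UMIs were not equal over the bands, at 10939 in control cells with 0 Cxcl12 UMIs, 15048 up to a level of 1 and 8120.5 above 3.

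**Figure D5:**
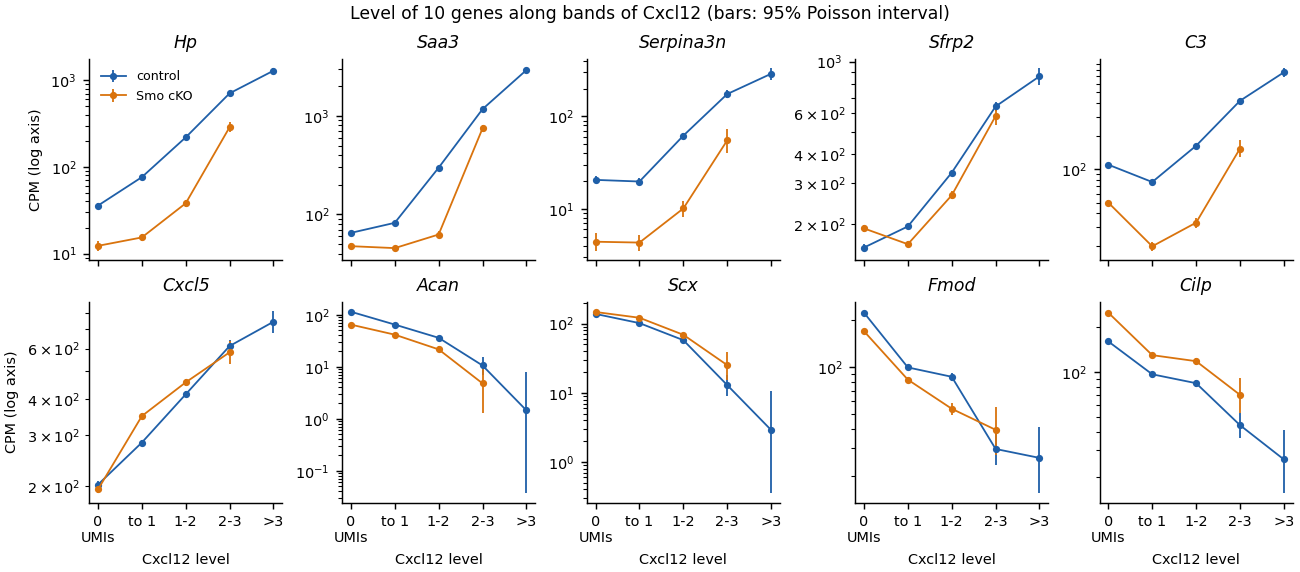
CPM (vertical axis, log scale) of 10 genes in connective cells of at least 5000 UMIs by band of the Cxcl12 level (horizontal axis) in the control and the Smo cKO library. Bars are 95% Poisson intervals, and the Smo cKO band above 3, of 4 cells, and points at 0 UMIs are not drawn. Hp reaches 1286 CPM in the highest control band while Acan is at 1.45 CPM there.

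The Cxcl12-high cells of the 2 libraries were also compared with each other. Of 2560 genes at 50 CPM or more in either, 192 (7.50%) were past 2-fold upward in the Smo cKO cells and 33 (1.29%) past 2-fold downward, or 169 and 30 without the shared barcodes. The median log2 ratio of Smo cKO over control was 0.24, and centring on it gave 84 higher and 90 lower genes. Since library and genotype cannot be told apart, the same ratio in zero cells is given beside each. Isg15 and Bst2, interferon-stimulated genes, had log2 ratios of 3.10 and 2.21 in Cxcl12-high cells and 2.68 and 1.87 in zero cells, and the heat shock gene Hspa1a of 2.13 and 1.77, so that these differences were present with and without Cxcl12. Ifi27l2a, also interferon-stimulated, was at 2.80 and 1.75. Timp3, an inhibitor of metalloproteinases, was at 2.37 in Cxcl12-high and 0.85 in zero cells, with 34.5% of its UMIs in the Smo cKO class from 1 cell, and the fatty acid binding protein gene Fabp5 at 2.09 and 0.88. Slpi, a secreted protease inhibitor, was at 2.27 and −0.12, but 96.3% of its UMIs in the Smo cKO class came from 1 cell, without which it was lower than in zero cells of that library, at −1.98.

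Lower in the Smo cKO than in the control Cxcl12-high cells were several of the acute-phase genes themselves. Serpina3n had a log2 ratio of −1.63 in Cxcl12-high and −2.16 in zero cells, Hp of −1.49 and −1.68, and C3 of −1.41 and −1.91. The zero-cell ratio of Hp rests on a Smo cKO value that is not read as expression, and the difference between the ratios was not tested. Mmp3, the metalloproteinase stromelysin, was at 84.6 CPM in control and 20.4 CPM in Smo cKO Cxcl12-high cells, a log2 ratio of −2.06, and at −1.0 in zero cells. Cfd was at −3.19 and −2.13, with the reservation on 1 cell given above. Klf4, a transcription factor of fibroblasts and epithelia, was at 527 and 200 CPM, a log2 ratio of −1.40, and at −0.90 in zero cells, and Entpd2, an enzyme that degrades extracellular ATP, at −1.66 and −1.35. Whether any of these differences belongs to the genotype was not tested, as no second library of either genotype was analysed here.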

How the data were processed

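Dissociated callus cells of 2 pooled samples were captured on the 10x Chromium and sequenced on a NextSeq. The authors deposited filtered UMI counts per gene and cell, made on mm10 with Cell Ranger 3.0.2 according to the submitters' processing notes. These counts were used as deposited. Of 31054 features, 30934 matched GENCODE vM21 (GRCm38), and Ccn4 was found under its older symbol Wisp1. Total counts were 1.05e+08 in the control and 1.13e+08 in Smo cKO, with medians of 7743 and 7702.5 UMIs per barcode.

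Cells were chosen by the rule above and each matched, without replacement, to up to 5 zero cells nearest in log total UMIs within 10%. Counts were summed per class and given as CPM, with exact Poisson intervals of the ratio and exact binomial intervals of shares. PCR duplicates are collapsed by the UMIs, and the intervals hold no variation between animals. Genes were compared at 50 CPM or more in either class and called at 2-fold. Named were the 20 highest and 10 lowest genes of the control, the 10 highest and 5 lowest of the Smo cKO library and the 8 highest and 8 lowest between libraries, ranked by the interval bound nearest 0, leaving out rule, mitochondrial, ribosomal protein, hemoglobin, immunoglobulin, Xist and Y-linked genes, plus 38 gene lists of 356 genes. The members, lists and rules were chosen with earlier results of these data known. Some genes named beside the motif search, such as Plac8, come from the set past 2-fold in both libraries. Not run were a doublet caller and any test over cells. The ratio and its interval were tried on simulated Poisson sums of each class, which hold no unevenness between cells, and the match on simulated totals. The scripts used Python 3.11.15, numpy 2.4.6, scipy 1.17.1, pandas 2.3.3 and matplotlib 3.10.9. Alternatives are given in the closing section.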

Additional observations from a re-analysis of the deposited data

Results flagged for a closer look

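Some named genes had ratios of opposite sign in the libraries, each with an interval on its own side of 0. The difference between the libraries was not tested, since there was 1 library per genotype, and pooled animals give no spread. Lower in control and higher in Smo cKO Cxcl12-high cells than in zero cells were Timp1, an inhibitor of metalloproteinases (log2 ratios of −0.35 and 0.20), Fabp5 (−0.97 and 0.24), the glycolytic genes Eno1 (−0.75 and 0.20) and Ldha (−0.69 and 0.13), the cytokine gene Mif (−0.47 and 0.18), the Wnt modulator Sfrp4 (−0.32 and 0.72) and interferon-stimulated Ifi27l2a (−0.61 and 0.44). Higher in control and lower in Smo cKO Cxcl12-high cells were the metalloproteinase genes Mmp2 (0.29 and −0.37), Adamts1 (0.26 and −0.23) and Adamts5 (0.92 and −0.55), the microfibril gene Mfap4 (0.28 and −0.41) and the growth factor receptor gene Pdgfrb (0.25 and −0.47).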

How the results depend on the processing

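No paired analysis was possible because each genotype had 1 library and no replicate numbers. Among counts and shares under the alternatives, 57 stayed within 1.5 times the main count or within the interval of the share and 47 moved. Among values of named genes, 472 stayed within their interval, 279 moved and 10 lay on the other side of 0, of which 4 are upper bounds with 0 UMIs in the first class and no measured change of sign. The control had 60 genes higher and 89 lower, which was 109 and 166 at a minimum of 20 CPM, 553 and 1100 among all genes with 10 or more UMIs, 94 and 166 with no depth match, and 36 and 45 against cells with Cxcl12 at a level of 2 or below. Centred ratios gave 52 lower genes, thinning to 1000 UMIs 138 lower, and cells of 200 to 2000 detected genes 37 higher. The Smo cKO library had 49 higher and 53 lower, which was 109 and 151 at 20 CPM, 455 and 984 with 10 or more UMIs, 269 and 230 after thinning, 112 and 151 at a level above 2.5, 184 and 215 in cells of 200 to 2000 genes, 105 and 151 in cells with under 3 UMIs of other cell types, and 26 lower against low-Cxcl12 cells. Smo cKO over control gave 192 higher and 33 lower, which was 408 and 136 at 20 CPM, 969 and 813 with 10 or more UMIs, 84 and 90 centred, 581 and 202 thinned, and 431 and 83 in cells of 200 to 2000 genes, with 68 lower at a level above 2.5 and 75 lower in cells with under 3 UMIs of other types. The cause of these shifts was not tested, apart from the fewer cells or UMIs that some settings keep.

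The share of Cxcl12-high cells was 7.27% in the control and 2.33% in Smo cKO. It was 13.2% and 9.14% thinned to 1000 UMIs, 3.67% and 0.589% above a level of 2.5, 15.4% and 7.70% above 1.5, 15.1% and 5.68% in cells of 200 to 2000 genes, 9.37% and 4.28% in cells with under 3 UMIs of other types, and 8.51% in the control at a collagen minimum of 2%. It was lower in Smo cKO under each of these. In cells thinned to 1000 UMIs a single Cxcl12 UMI gives a level above 2, so that share is of cells with any Cxcl12 UMI left. Thinned to 5000 UMIs, chosen as a deeper setting, the share of Cxcl12-high cells was 6.63% and 2.24%. Hp kept a log2 ratio of 2.66 to 4.83 in the control and 3.40 to 6.38 in Smo cKO, and Saa3 of 2.85 to 4.97 and 3.62 to 6.42, over all settings. Measured values on the other side of 0 were those of Slpi in Smo cKO, at −3.63 above a level of 2.5 and −1.98 without the cell with most of its UMIs (chosen after seeing the data), and Slpi between libraries, at −3.16 above 2.5, −0.45 in cells of 200 to 2000 genes and −0.64 in cells with under 3 UMIs of other types, and of Bglap in Smo cKO against low-Cxcl12 cells, at 3.29 from 2 UMIs and 1 UMI. The upper bounds, from a floor of 3 counts, were 1.55 for Col2a1 in Smo cKO against low-Cxcl12 cells, 0.33 for Ibsp in Smo cKO and 0.29 for Cfd between libraries in cells of 200 to 2000 genes, and 1.07 for Bglap2 in Smo cKO cells with under 3 UMIs of other types.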

Other observations

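Further gene groups are given as values. Of 10 genes of hypoxia and glycolysis, none differed by 2-fold between Cxcl12-high and zero cells, with a median log2 ratio of −0.39 in the control and 0.02 in Smo cKO. Of 12 NF-kB targets, 6 reached 50 CPM in each library, and Sod2, the mitochondrial superoxide dismutase, was the 1 of these at least 2-fold higher in each library, with medians of 0.30 and 0.23 and with Nfkbia, the inhibitor that NF-kB induces, at 0.63 and −0.06. Interferon-stimulated genes summed to 1653 CPM in Cxcl12-high and 1379 CPM in zero cells of the control and to 3483 and 2666 CPM in Smo cKO, and none of the 3 and 4 of 10 that reached 50 CPM was past 2-fold. Of 11 metalloproteinase genes and inhibitors, 7 reached 50 CPM in the control and 8 in Smo cKO, where Mmp3 was higher in the control, at 84.6 and 16.7 CPM, and Mmp13 was lower in Smo cKO. A list of 6 small leucine-rich proteoglycans left out Fmod and Aspn of that family, given above and past 2-fold lower in the control. The 6, with Bgn the most abundant, summed to 3642 and 2949 CPM in the control and to 3564 and 3241 CPM in Smo cKO. Neither of the 2 of 6 that reached 50 CPM was past 2-fold, with medians over the 6 of −0.58 and −0.18. Of 10 periosteal progenitor genes, 4 reached 50 CPM in each library, of which none was past 2-fold in the control and 1 was lower in Smo cKO. Chl1, a cell adhesion molecule best known from neurons, was at 80.3 and 9.20 CPM in the control, a log2 ratio of 3.13 (interval 2.82 to 3.43), and had a UMI in 38.1% of Cxcl12-high and 5.85% of zero cells, beside 0.917% of Ptprc cells. In the Smo cKO library it was at 22.5 CPM, from 21 UMIs, and 1.29 CPM, a log2 ratio of 4.13. Both of these values were below the minimum of 50 CPM. Rgs16, a regulator of G protein signaling, was at 83.5 and 21.4 CPM in the control and 85.7 and 33.7 CPM in Smo cKO, log2 ratios of 1.97 and 1.35. Lgi2, a secreted leucine-rich protein, was at 69.0 and 22.0 CPM and at 61.1 and 14.4 CPM.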
